A study of Mus musculus with 2 samples.

Results

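The collagen genes were described through the open chromatin regions that lay closest to them in mouse liver. A region was taken when the symbol of the gene with the closest transcription start site (TSS) began with Col, a chain number, the letter a and a further number. Of 69549 distinct regions, 73 met this rule. One of them lay at the promoter of *Col4a3bp*, which encodes a ceramide transfer protein and no collagen. It had 877 reads in the control library and 702 in the knockout library, a log2 ratio of −0.46, and was left out of all summaries. The other 72 regions belonged to 30 of the 44 collagen genes in the RefSeq annotation. They were split by the known structure of the chains into 15 regions of 8 fibrillar genes, 10 regions of 5 basement membrane (type IV) genes and 47 regions of 17 other genes. The centre of 17 regions, from 15 genes, lay within 1000 bp of the TSS, and these were called promoter regions. The remaining 55 were called distal. At this limit the outermost promoter region was that of *Col1a1* at 830 bp, with a log2 ratio of 0.08, and the nearest distal one that of *Col11a1* at 1435 bp, with −0.65.

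ATAC-seq was performed on liver nuclei of C57BL/6 mice aged 8 weeks and kept on normal chow. The Tn5 transposase used in this assay inserts adaptors where DNA is accessible, so the read count of a region reflects how open its chromatin is. All mice carried the floxed *Mettl3* allele (*Mettl3* flox/flox), which encodes the catalytic subunit of the RNA m6A methyltransferase. *Mettl3*-HKO mice carried Alb-Cre+/- in addition, with Cre driven by the albumin promoter and therefore active in hepatocytes, and the controls had no Cre. Livers of several mice were pooled into 1 library per genotype, so that no replicate error exists and no test between the genotypes was possible. The 95% intervals given with log2 ratios (exact Clopper-Pearson, *Mettl3*-HKO over *Mettl3* flox/flox) cover counting error only, and duplicate reads make even this error an underestimate.

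The knockout library had a larger total, 58038309 against 52826209 reads as recovered from the RPM values, but fewer of its reads lay on the regions, 22.3% against 31.7%. Over all regions the log2 ratio had a median of −0.38, and over the 14387 promoter regions among them a median of −0.56. Open chromatin at the *Mettl3* promoter, with 566 reads in the control and 392 in the knockout library (−0.66), does not show whether the floxed exons were deleted. Of the 8 hepatocyte markers all had a promoter region, and their summed promoter signal was 81.1 RPM (reads per 1000000 reads of the library) in the control and 47.3 in the knockout library. That of the endothelial markers, with promoter regions for 7 of 8 genes, was 2.90 and 6.89 RPM. Set beside these sums, the summed signal of all promoter regions was also lower in the knockout library (log2 ratio −0.61). Since whole liver was used, fewer cells of a type and less open chromatin per cell cannot be told apart.

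Collagens form the helical proteins of the extracellular matrix. Fibrillar collagens build the tensile fibres that accumulate in fibrosis, type IV collagen forms the network of basement membranes, and the other collagens decorate fibrils, form filaments or short networks, or stay anchored in the cell membrane. In liver, stellate cells and portal fibroblasts make most fibrillar collagen, endothelial and stellate cells make type IV collagen, and hepatocytes express *Col18a1*, the precursor of endostatin.

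Chromatin near collagen genes differed between the genotypes in both directions, and collagen promoters were weakly open. The median mean signal of the 17 collagen promoter regions was 0.739 RPM, against 5.83 RPM for all 14387 promoter regions. The 55 distal collagen regions were not weak, with a median of 1.34 RPM against 1.25 RPM for all distal regions. A log2 ratio above zero was found in 23 of the 72 regions (31.9%), near the 35.2% of all regions, and the ratios ran from −2.40 to 2.86 around a median of −0.62. Signal at least 2-fold higher in *Mettl3*-HKO liver was found in 12 regions (16.7%), where 13.2% of all regions reached this fold. Signal at least 2-fold lower was found in 19 (26.4%), where 18.3% of all regions did. The whole counting interval lay above zero for 15 collagen regions (20.8%) and below zero for 41 (56.9%), against 21.1% and 48.7% of all regions. Counts in each direction depended on the scaling. After the median of all regions was set to zero, 16 collagen regions (22.2%) passed 2-fold upward and 8 (11.1%) downward, against 20% and 7.89% of all regions. This centring turned the sign of 6 collagen regions, none of them a promoter, and scaling to the reads on all regions turned that of 10, again without a promoter. Among promoters, 3 of 17 collagen regions were higher by this fold and 6 lower, against 4.07% and 16.3% of all promoter regions. After centring this balance was reversed, with 5 higher and 2 lower against 6.9% and 5% of all promoter regions. These promoter shares come from mostly stronger regions. The 3 higher collagen promoters lay in the lowest quartile of mean signal, where 30.9% of all regions were at least 2-fold higher. Among distal regions, 9 of 55 were higher and 13 lower, against 15.6% and 18.8%. A peak had been called in both libraries for 30 collagen regions, only in the control for 25 and only in the knockout library for 17. For all regions, 16.8% had a peak only in the control and 21.5% only in the knockout library. Peak calls were made from the same reads as the ratios and are no separate evidence.

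**Figure D1:**
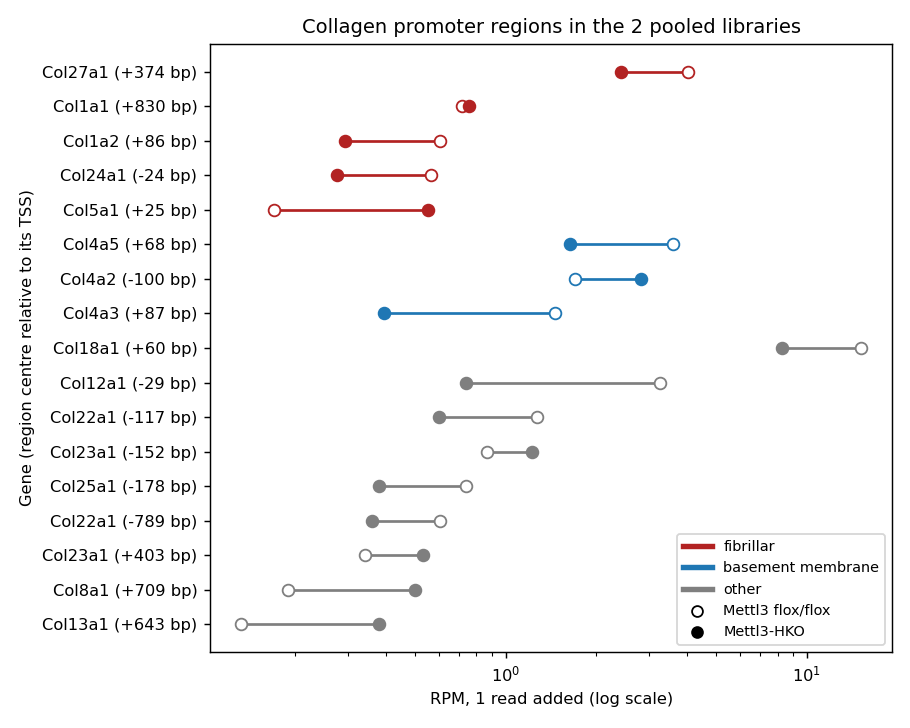
Signal of the 17 collagen promoter regions in RPM (x axis, log scale) in the *Mettl3* flox/flox library (open circles) and the *Mettl3*-HKO library (filled circles), one row per region with the distance of its centre from the TSS. *Col18a1* lies farthest to the right at 15.2 and 8.27 RPM. *Col5a1*, *Col13a1* and *Col8a1* are the 3 rows with at least 2-fold higher knockout signal, and all 3 are among the weakest.

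Weak regions of the whole table tended to higher ratios than strong ones, so each collagen region was set beside the 1000 regions of the same kind, promoter or distal, nearest to it in mean RPM. The collagen ratio minus the median of these neighbours is called the offset. The median offset over the 72 regions was −0.23, with 25 offsets above zero. The ratio lay between the quartiles of its neighbours in 32 regions, over the upper quartile in 15 and under the lower quartile in 25. In the lowest quartile of signal, the collagen median was −0.16 against 0.37 for all regions. In the second quartile the order was reversed, at 0.10 for the collagens and −0.11 for all regions. The third quartile gave −0.63 and −0.45. In the highest quartile, where 8 collagen regions from 4 genes lay, the medians were −0.87 and −0.64.

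**Figure D2:**
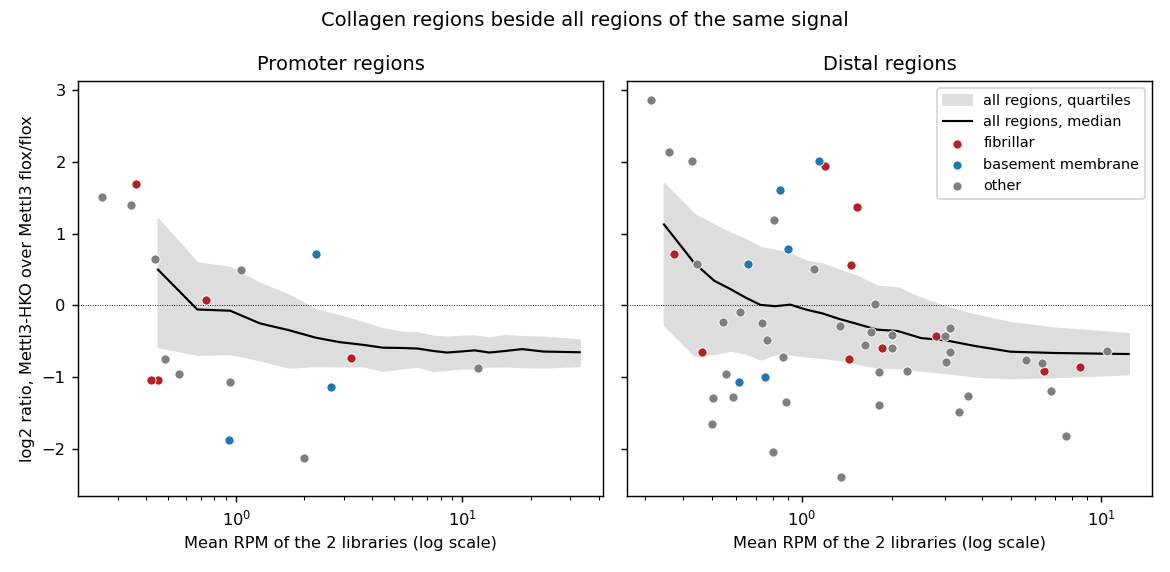
Log2 ratio of knockout over control (y axis) against the mean RPM of both libraries (x axis, log scale) for collagen promoter regions (left) and distal regions (right), coloured by class, over the median (line) and quartiles (grey) of all regions in 20 groups of equal size. The line falls from above zero at weak regions to about −0.65 at strong ones, and collagen points scatter on both sides of it, with the *Col4a2* promoter (0.72 at 2.26 RPM) well over it and the *Col12a1* promoter (−2.14 at 2.00 RPM) well under it.

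The classes differed in how their regions were spread. Fibrillar collagens had a median of −0.59, with 3 of its 15 regions past 2-fold upward and 2 downward. Basement membrane collagens had a median of 0.65, with 3 of 10 higher and 4 lower, and only 1 of the 10 lay between the quartiles of its neighbours. The other collagens had a median of −0.65, with 6 of 47 higher and 13 lower. Set beside these counts, 13.2% of all regions were higher and 18.3% lower. Centring changed the balance in each class, to 4 higher and 0 lower for fibrillar, 5 and 1 for basement membrane and 7 and 7 for the other collagens, against 20% and 7.89% of all regions. The median offsets were −0.20, 0.61 and −0.28 in the same order. The medians of the first 2 classes depended on how many regions each gene contributed. With only the strongest region of each gene, the fibrillar median was 0.32 over 8 genes and the basement membrane median −1.07 over 5, both of the opposite sign.

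**Figure D3:**
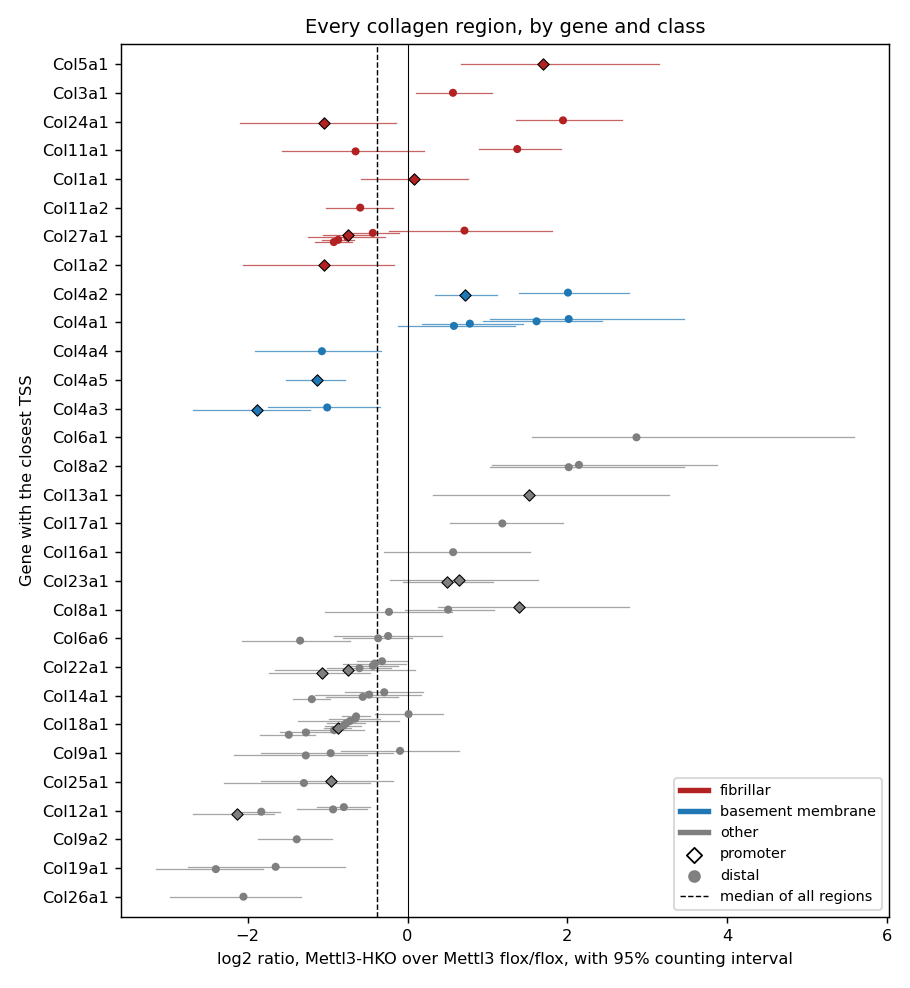
Log2 ratio (x axis) of each of the 72 collagen regions by gene (rows), coloured by class, with 95% counting intervals. Diamonds are promoter regions, circles distal regions, and the dashed line is the median of all regions (−0.38). Within type IV the 6 regions of *Col4a1* and *Col4a2* all lie above zero and the 4 regions of *Col4a3*, *Col4a4* and *Col4a5* all lie at −1.01 or lower.

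Type IV collagen genes lie in head-to-head pairs, and the pairs differed in direction. *Col4a1* and *Col4a2* encode the chains found in nearly all basement membranes, whereas *Col4a3*, *Col4a4* and *Col4a5* encode those of kidney glomeruli and a few other membranes. The RefSeq genes *Col4a1* and *Col4a2* overlap by 85 bp at their starts, and a single region covers both start sites. This shared promoter (GRCm38 chr8:11312400-11313010) had 89 reads in the control and 162 in the knockout library, a log2 ratio of 0.72 (95% interval 0.35 to 1.12). The region was higher in the knockout library but did not reach 2-fold. A distal region in the first intron of *Col4a1*, 6.90 kb upstream of *Col4a2*, had 23 and 105 reads and rose by 2.01 on the log2 scale (1.39 to 2.77). Of 4 regions in the third intron of *Col4a2*, all with *Col4a1* as the closest TSS, those 21.9 and 27.6 kb upstream of *Col4a1* rose. The first of them had 8 and 39 reads (2.02, 1.03 to 3.46) and the second 21 and 73 (1.61, 0.95 to 2.44). The other two, 10.1 and 11.1 kb away, had 27 and 45 reads (0.58, −0.12 to 1.35) and 34 and 65 reads (0.78, 0.18 to 1.44). All 6 regions were thus higher in *Mettl3*-HKO liver, and all 6 had positive offsets, up to 2.18 for the region in the first intron of *Col4a1*. Added up, the 4 regions named for *Col4a1* had 90 and 222 reads and the 2 named for *Col4a2* 112 and 267.

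The regions named for the second pair went the other way. *Col4a3* and *Col4a4* overlap by 114 bp at their starts, and their shared promoter region (chr1:82586770-82587358) fell from 76 to 22 reads, a log2 ratio of −1.88 (−2.68 to −1.22). A region in the first intron of *Col4a3* fell from 52 to 28 reads (−1.01, −1.75 to −0.34). One in the fourth intron of *Col4a4* fell from 43 to 22 reads (−1.07, −1.91 to −0.33). The third pair is *Col4a5* and *Col4a6*, whose RefSeq starts lie 1274 bp apart. Its region (chrX:141475022-141475886) covered only the *Col4a5* start and fell from 189 to 94 reads (−1.14, −1.52 to −0.78). The differences between these promoters do not depend on the scaling of the libraries, since both share it. The *Col4a2* ratio exceeded that of *Col4a3* by 2.64 on the log2 scale (1.83 to 3.50) and that of *Col4a5* by 1.87 (1.33 to 2.41). *Col4a5* and *Col4a3* differed by 0.78, with an interval from −0.02 to 1.63 that includes zero.

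Further regions lay inside type IV genes but closer to the TSS of another gene, and their directions were mixed in both the first and the second pair. Of 9 such regions in *Col4a1*, 4 were above zero, with a median of −0.19. The 3 that were at least 2-fold higher included neighbours with 67 and 182 reads (1.29) and 76 and 266 reads (1.66). The strongest of the 9 had 417 reads in the control and 358 in the knockout library (−0.36). Both such regions of *Col4a2* were below zero, at −0.40 and −0.24. In *Col4a3*, a region in the first intron rose from 14 to 59 reads (1.86, 1.08 to 2.90), while one in the second fell from 117 to 51 (−1.32, −1.84 to −0.85). *Col4a6* had no region named for it, and an intronic one had 25 and 46 reads (0.72, 0.01 to 1.51). Another that the table assigns to *Col4a6* but marks as intergenic rose from 19 to 49 reads (1.19, 0.44 to 2.08). In the plot of distance from the *Col4a2* start, positive ratios thus lay at all 6 regions around the starts and at 4 of the 9 farther into *Col4a1*.

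**Figure D4:**
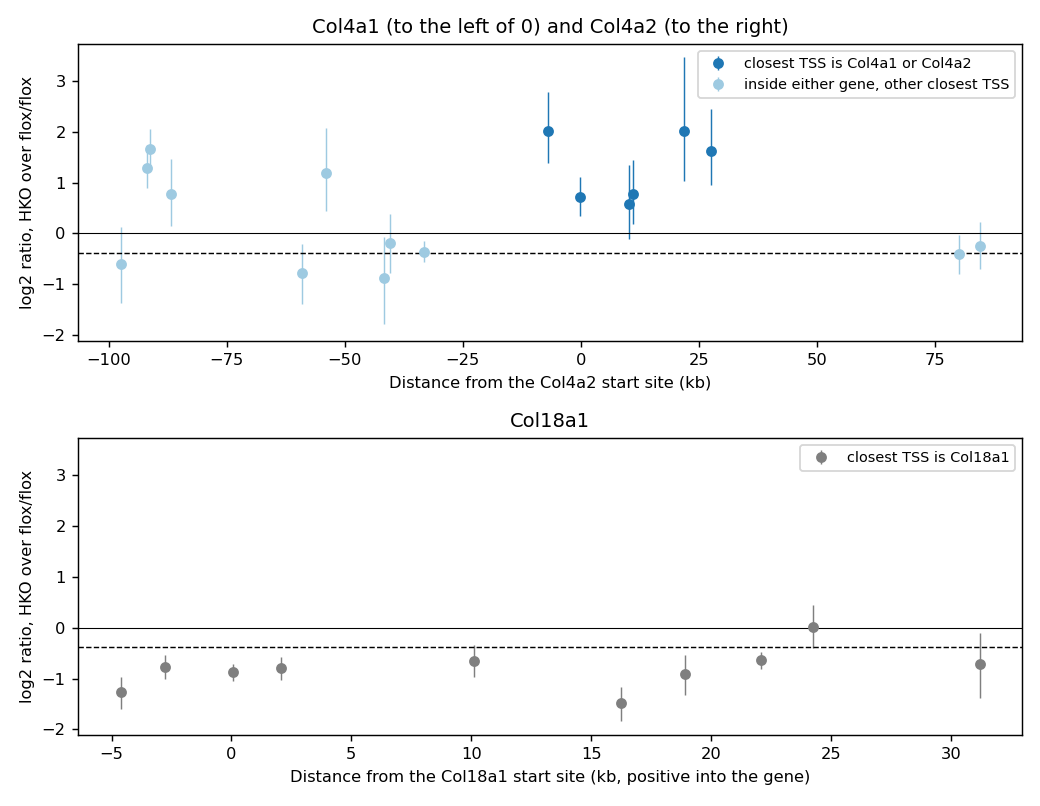
Log2 ratio with 95% counting intervals (y axis) against the distance from the *Col4a2* start site (top, kb, *Col4a1* to the left) and from the *Col18a1* start site (bottom, kb, positive into the gene). Dark blue points have *Col4a1* or *Col4a2* as the closest TSS, light blue points lie inside either gene with another closest TSS, and the dashed line is the median of all regions. All 6 dark blue points lie above zero, and 9 of the 10 *Col18a1* points lie below it.

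Endothelial marker promoters were higher in the same library as the *Col4a1* and *Col4a2* regions. All 7 had a ratio above zero, 5 were at least 2-fold higher (4.07% of all promoter regions), and their median was 1.60. They were weak, at 0.458 to 1.15 RPM, where the median of all promoter regions in groups of like signal reached up to 0.50. Over all 31 regions of the 8 endothelial markers, 16 passed 2-fold upward and 2 downward (13.2% and 18.3% of all regions), and the summed signal was 32.9 RPM in the control and 41.3 RPM in the knockout library. The 3 promoter regions of macrophage markers were above zero as well (median 1.07, 2 at least 2-fold higher), with a summed signal of 1.59 and 3.19 RPM. Over all 12 macrophage marker regions, the median was 0.51, with 4 past 2-fold upward and 1 downward, but the sum went the other way, with 18.3 RPM in the control and 12.3 RPM in the knockout library. The part of these cell types in the collagen values was not tested.

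Fibrillar collagen genes include those most used as readouts of fibrosis. Their 5 promoter regions were weak, with a median of 0.449 RPM, whereas their 10 distal regions had a median of 1.49 RPM. *Col1a1* and *Col1a2* encode the chains of type I collagen. The only region of *Col1a1* lay in its first intron, 830 bp downstream of the TSS, and had 37 reads in the control and 43 in the knockout library, a log2 ratio of 0.08 (−0.59 to 0.76). The only region of *Col1a2*, over its TSS, fell from 31 to 16 reads (−1.05, −2.06 to −0.18). The type I ratios differed by 1.16, with an interval that only just left out zero (0.0074 to 2.36). *Col3a1*, which encodes type III collagen, had no promoter region. The single region named for it lay 55.1 kb upstream and had 61 and 100 reads (0.57, 0.10 to 1.06). A region in its first intron, with another closest TSS, had 86 and 79 reads (−0.26, −0.72 to 0.20). *Col5a1*, whose chain starts fibril assembly, had 8 and 31 reads at its promoter and rose by 1.69 (0.67 to 3.15). The ratio of *Col5a1* exceeded that of *Col1a2* by 2.87 (1.36 to 4.52). No common direction was seen among the chains of types I, III and V.

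The rest of the fibrillar class was similarly mixed. At *Col24a1* the promoter fell from 29 to 15 reads (−1.04, −2.09 to −0.14), while a region 24.2 kb upstream rose from 25 to 109 (1.95, 1.35 to 2.68). *Col11a1* had 29 and 20 reads at 1.44 kb from its TSS (−0.65, −1.57 to 0.20) and 44 and 127 reads in an intron 158.9 kb into the gene, which rose by 1.37 (0.89 to 1.92). The region named for *Col11a2* lay inside *Rxrb*, a nuclear receptor gene, and had 117 and 85 reads (−0.59). *Col27a1*, a cartilage fibrillar collagen, had the strongest regions named for a fibrillar gene. Its promoter had 212 and 139 reads (−0.74, −1.06 to −0.43), and the strongest of these regions, in an intron, had 577 and 347 (−0.87, −1.07 to −0.68). None of its 6 regions reached 2-fold. The offsets of the 3 strongest were −0.18, −0.27 and, at the promoter, −0.22. The weakest *Col27a1* region was the only one above zero, with 14 and 26 reads (0.71, −0.23 to 1.81).

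Promoter sequences are shown for fibrillar genes with promoter ratios of opposite sign and for *Col4a5*, so that their base composition can be compared. Sequences are from RefSeq (GRCm38.p6, plus strand), where 9 of the 15 genes with a promoter region were matched. Each stretch ends before the first transcribed base in either annotation. Capitals mark the CCAAT box (CCAAT or, on the other strand, ATTGG) and the GC box (GGGCGG or CCGCCC). The TATA box (TATAAA or TTTATA) was also searched, and no marked match overlaps another.
*Col5a1*, chr2:27886175-27886380: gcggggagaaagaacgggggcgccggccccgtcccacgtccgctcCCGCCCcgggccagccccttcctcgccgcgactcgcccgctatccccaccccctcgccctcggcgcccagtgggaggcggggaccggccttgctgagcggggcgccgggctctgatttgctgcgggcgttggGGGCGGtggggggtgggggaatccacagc
*Col1a2*, chr6:4505368-4505492: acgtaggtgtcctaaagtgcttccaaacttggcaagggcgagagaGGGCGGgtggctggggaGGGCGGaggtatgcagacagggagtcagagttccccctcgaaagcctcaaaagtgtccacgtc
*Col24a1*, chr3:145292222-145292471: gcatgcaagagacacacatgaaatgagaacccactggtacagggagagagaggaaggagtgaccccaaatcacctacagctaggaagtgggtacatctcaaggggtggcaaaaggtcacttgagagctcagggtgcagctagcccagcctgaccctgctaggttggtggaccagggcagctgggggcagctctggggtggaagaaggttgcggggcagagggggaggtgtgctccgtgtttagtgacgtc
*Col4a5*, chrX:141475169-141475369: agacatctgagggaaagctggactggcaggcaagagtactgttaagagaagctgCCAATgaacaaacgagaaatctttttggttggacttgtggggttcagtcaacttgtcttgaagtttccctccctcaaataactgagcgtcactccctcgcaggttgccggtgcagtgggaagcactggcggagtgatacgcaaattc
The *Col5a1* stretch, from the gene whose promoter rose, held 77.7% G and C, more than 97.7% of the 32817 RefSeq promoters over the same stretch. The other three held 59.2%, 58.0% and 49.8%, more than 75.0%, 66.8% and 42.2% of promoters. *Col5a1* and *Col1a2* each had 2 GC boxes, a motif found in 25.8% and 13.4% of promoters over stretches of their lengths, so the genes with opposite ratios shared it. *Col4a5* had 1 CCAAT box, found in 28.6% of promoters. None of these stretches held a TATA box, which 6.23% to 12.4% of promoters held. The open region covered all of the *Col4a5* stretch but only 92 of 206, 43 of 125 and 123 of 250 bases of the other three. Inside the region shared by *Col4a1* and *Col4a2*, and within the transcribed start of *Col4a1*, the 30 bases from 52 to 23 upstream of *Col4a2* (chr8:11312753-11312782) held a GC box followed by a CCAAT box.
*Col4a2*: cgcgCCGCCCgaggagctccCCAATttgtt

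*Col18a1*, the only multiplexin with regions named for it, had the most reads on regions named for a collagen gene. Its promoter (chr10:77113500-77114273) was the strongest of these regions and had 800 reads in the control and 479 in the knockout library, a log2 ratio of −0.87 (−1.04 to −0.71). The 10 regions of the gene together had 3297 and 2048 reads (−0.82, −0.90 to −0.74), which was 35.5% of all control reads on collagen regions. Regions in the first intron, 16.2 kb into the gene, and 4.60 kb upstream fell. They had 259 and 101 reads (−1.49, −1.84 to −1.16) and 267 and 121 reads (−1.27, −1.60 to −0.96). The other eight did not reach 2-fold, and 1 of them, in the second intron, had 91 and 101 reads (0.01, −0.41 to 0.44). The median offset was −0.19, with 2 of 10 offsets above zero. Of the 10 ratios, 6 lay between the quartiles of their neighbours, 4 under the lower quartile and none over the upper. Its promoter differed from that of *Col27a1*, the next strongest collagen promoter, by −0.13, with an interval of −0.49 to 0.23. The hepatocyte marker promoters had a median of −0.94, against −0.56 for all promoter regions. Of their 9 regions, 4 were at least 2-fold lower (16.3% of all promoter regions), and 2 after centring (5%). Their part in the *Col18a1* values was not tested.

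Fibril-associated collagens, which bind to the surface of fibrils, had 21 regions from 7 genes. Of these, 8 (38.1%) were at least 2-fold lower and none higher, against 18.3% and 13.2% of all regions. After centring, 5 (23.8%) were lower and none higher, against 7.89% and 20% of all regions. The 21 regions had a median of −0.80 and a median offset of −0.54. A single region, of *Col16a1*, was above zero, with 18 and 30 reads (0.57, −0.29 to 1.53). *Col12a1* showed the lowest promoter ratio of all collagens. This promoter (chr9:79718329-79718766) fell from 171 to 42 reads (−2.14, −2.68 to −1.67), and a stronger region in the second intron fell from 630 to 194 (−1.83, −2.07 to −1.60). The promoter ratio minus that of *Col18a1* was −1.28 (−1.84 to −0.76). A pair of regions about 12 kb upstream of *Col12a1* were lower without reaching 2-fold, with 203 and 128 reads (−0.80) and 124 and 71 reads (−0.93). *Col19a1* fell in both its intronic regions, from 119 to 24 reads (−2.40, −3.14 to −1.80), the lowest ratio of any collagen region, and from 39 to 13 (−1.65, −2.75 to −0.78). *Col9a2* fell from 137 to 57 reads in an intron (−1.39, −1.87 to −0.95). At *Col14a1* the strongest of 4 regions, 4.34 kb upstream, fell from 500 to 239 reads (−1.20, −1.43 to −0.98), and the rest lay between −0.56 and −0.29.

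*Col22a1*, which marks tissue junctions, had 6 regions with 707 and 552 reads in all (−0.49, −0.66 to −0.33). Its promoter region nearest the TSS fell from 66 to 34 reads (−1.07, −1.73 to −0.48), and the second, 789 bp upstream, had 31 and 20 reads (−0.74, −1.66 to 0.09). The 4 distal regions lay between −0.60 and −0.32. The region of *Col26a1*, 5.46 kb upstream, was also among the lowest and fell from 67 to 17 reads (−2.05, −2.98 to −1.33).

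Higher ratios in the remaining collagens rested on few control reads. The short-chain, network-forming genes *Col8a1* and *Col8a2* had 5 regions with a median of 1.40, of which 3 rose. All 3 lay in the lowest quartile of signal, where 30.9% of all regions were at least 2-fold higher. *Col8a2* rose in both regions named for it, from 8 to 39 reads (2.02, 1.03 to 3.46) and from 6 to 33 (2.14, 1.05 to 3.87). The *Col8a1* promoter region, 709 bp into the gene, rose from 9 to 28 reads (1.40, 0.38 to 2.77), whereas its distal pair had 47 and 74 reads (0.51) and 30 and 28 reads (−0.23). Regions inside these 2 genes with another closest TSS were all below zero. *Col8a2* had 37 and 24 reads in such a region (−0.74), and *Col8a1* 61 and 38 (−0.80) and 58 and 51 (−0.32). The highest ratio of all was in an exon of *Col6a1*, a chain of the beaded filament collagen VI, which had 3 reads in the control and 31 in the knockout library (2.86, 1.55 to 5.59). None of the 3 regions of *Col6a6* was above zero, and 1 fell, from 66 to 28 reads (−1.34).

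The transmembrane collagens split. *Col13a1* rose at its promoter from 6 to 21 reads (1.52, 0.32 to 3.27), and *Col17a1*, a hemidesmosome protein, rose 7.65 kb upstream from 25 to 64 (1.19, 0.53 to 1.95). *Col23a1* had 45 and 70 reads (0.49, −0.06 to 1.08) and 17 and 30 reads (0.65, −0.22 to 1.63) in its promoter regions, neither of which reached 2-fold. *Col25a1* had 38 and 21 reads at its promoter (−0.96, −1.83 to −0.19), just short of 2-fold, and fell from 37 to 16 in an intron (−1.30, −2.29 to −0.46).

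The promoters of genes that act on collagen were read against all promoter regions, which had a median log2 ratio of −0.56. Among these, 4.07% reached 2-fold upward and 16.3% downward. Of 29 genes that modify collagen (hydroxylases, lysyl oxidases, procollagen proteinases and chaperones), 20 had promoter regions. Their 23 regions had a median of −0.49, with 1 at least 2-fold higher and 4 lower. The strongest, of the prolyl hydroxylase gene *P4hb*, had 1165 and 1055 reads (−0.28). Of 15 genes for collagen degradation and its inhibitors, 6 had promoter regions, and 1 of 9 regions was at least 2-fold higher and none lower (median −0.28). The protease gene *Ctsl* was strongest there, with 1245 and 1125 reads (−0.28). Only 3 of 10 collagen receptor genes had a promoter region. None reached 2-fold (median −0.43), and the integrin gene *Itgb1* was strongest with 841 and 693 reads (−0.41). Of 16 partners of type IV collagen in basement membranes, 10 had promoter regions, with 1 of 11 promoters past 2-fold upward and 2 downward (median −0.27). The laminin gene *Lamc1* was the strongest, with 2057 and 1179 reads (−0.94). After centring, 4 of the 46 promoter regions of these 4 lists were at least 2-fold higher and none lower, against 6.9% and 5% of all promoter regions. Over all regions of the lists, promoter and distal, the medians were −0.53, 0.15, −0.17 and 0.15 in the order given, against −0.38. At least 2-fold higher were 6 of 57, 8 of 38, 5 of 16 and 10 of 40 regions (13.2% of all regions). At least 2-fold lower were 11, 2, 0 and 8 of them (18.3%).

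Stellate and bile duct markers gave little to set the collagen values against. Only 2 of 8 stellate markers had a promoter region, and *Dcn*, *Des*, *Lrat*, *Lum* and *Pdgfrb* named no region, in a table where 45.9% of regions carry no symbol. One of these 2 regions was at least 2-fold higher and the other, of *Reln*, fell from 690 to 132 reads, and their summed signal was 13.2 and 2.86 RPM. Cholangiocyte markers had 6 promoter regions for 5 of 8 genes, with 1 higher and 1 lower and a summed signal of 17.2 and 12.5 RPM. *Cftr*, *Krt19* and *Krt7* named no region.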

How the data were processed

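ATAC-seq of 1 *Mettl3* flox/flox and 1 *Mettl3*-HKO library was used. Per the labels, the authors aligned reads with BWA to GRCm38 and called peaks with MACS2, per the methods with duplicates kept, and the deposited table marks in which library each region had a peak. How regions were merged, how reads were counted and whether read ends were shifted for Tn5 is not given in the sources used here. The authors deposited, for each region, raw read counts and RPM values, from which the library totals were recovered (the RPM add 1 read to each count). They also deposited a log2 ratio, a fold enrichment and scores, which were not used. Starts were converted to count from 1.

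Of 74821 rows, 5272 repeats were left out. Symbols were missing for 45.9% of regions, and these could not enter the rule. From the counts, 1 read was added and log2 ratios were scaled to the recovered totals. A region was called at a 2-fold difference, with no test. Differences between 2 regions are log2 odds ratios with exact conditional intervals. The median region had 85 reads in the control and 81 in the knockout library. Classes and gene lists were fixed by function, but members and lists were chosen with earlier results of these data known. Named were all promoter regions, the strongest region of each class, the 5 highest and 5 lowest ratios among regions with at least 20 reads, and the regions of *Col1a1*, *Col1a2*, *Col3a1*, *Col4a1*, *Col4a2* and *Col18a1*. Further regions were named after their values were seen. The scripts were tested on simulated data. Calculations used pandas 2.3.3 and scipy 1.17.1 under Python 3.11.15 (numpy 2.4.6), and plots matplotlib 3.10.9.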

Additional observations from a re-analysis of the deposited data

How the results depend on the processing

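Centring on the median of all regions gave collagen, other-collagen and distal medians of −0.24, −0.28 and −0.21, and scaling to reads on regions gave −0.11, −0.14 and −0.081. With the strongest region per gene they were −0.21, −0.32 and −0.21, and the offset was −0.033. The 12 collagen regions at least 2-fold higher became 21 when scaled to reads on regions, 0 in the upper 50% of mean RPM, 7 with 1 region per gene and 22 over regions lying in a collagen gene. The 19 lower regions became 8 when centred, 6 when scaled to reads on regions, 7 in the upper 50%, 9 with 1 region per gene, 38 at 1.5-fold, 6 at 3-fold and 31 over regions lying in a collagen gene. Fewer regions enter with 1 region per gene or the upper 50%, and more when all regions lying in collagen genes enter. Of 81 values under alternatives, 60 moved by less than the interval of the median or, for counts, by at most 1.5 times, among them the higher regions at 3-fold (8). For classes this interval is wide, and the fibrillar and basement membrane medians changed sign with 1 region per gene. The basement membrane median was also below zero in the upper 50% of mean RPM, at −0.21 over 2 regions. Leaving out *Col18a1* and using regions lying in a collagen gene were chosen after seeing the data. Symbols from RefSeq by Ensembl identifier were not run, since the annotation used held no such identifiers. No paired analysis was possible because each group is 1 pooled library. All 12 higher regions lie in the lower 50% of signal, where read counts limit precision, which does not hold for all regions lying in collagen genes.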

Other observations

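The table assigns to collagen genes by overlap 76 further regions whose closest TSS was that of another gene, 75 of them inside the gene, with a median log2 ratio of −0.32, 13 (17.1%) at least 2-fold higher and 16 (21.1%) lower, near the 13.2% and 18.3% of all regions. The 4 in *Col12a1* summed to 2477 and 1539 reads. For 5 genes such regions were the only ones. *Col28a1*, a von Willebrand domain collagen, had 6 such regions, of which 5 fell and 1 rose, from 26 to 112 reads (1.93, 1.35 to 2.65). The strongest of the 6 fell from 315 to 150 reads (−1.20), and another from 207 to 37 (−2.59), below any region named for a collagen gene. The 8 regions of *Col15a1*, a multiplexin like *Col18a1*, had a median of −0.72, and the strongest had 1321 and 862 reads (−0.75, −0.88 to −0.63). Of these 8, 1 was at least 2-fold higher and 2 lower. *Col5a3* had 3 regions, all below zero (−1.22 to −0.22), *Col5a2* 2 regions at −0.70 and 1.12, and *Col4a6* 2 at 0.72 and 1.19. *Col25a1* held the most, 12, of which 6 were above zero (−1.29 to 2.67). The remaining 9 collagen genes, *Col2a1* and *Col7a1* among them, named no region by either measure, with *Col6a5* counted here although 2 regions named for *Col6a6* lie in its introns.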
